A study of Mus musculus with 6 samples.

Results

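The 10 genes described here, Lep, Retn, Adipoq, Cfd, Car3, Nnat, Cidec, Plin1, Pck1 and Fabp4, encode hormones, lipid droplet proteins and enzymes that are typical of fat cells. They were taken by symbol from a table of read counts for 48795 genes in quadriceps muscle, and all 10 were present and passed the filter on low counts, among 13628 genes tested. The tissue came from 20-week-old male C57BL/6 mice of 2 genotypes, with 3 RNA-sequencing libraries each. MERKO mice carried the genotype given as muscle-specific Er_alpha-/-, a loss of the estrogen receptor ERα in muscle, and the controls were wildtype. The promoter that limits the deletion to muscle is not given in the sources used here. MERKO against control is the comparison that the design makes, in a study titled for ERα action on mitochondria and metabolism in muscle.

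Adipocytes store triglyceride in a single large lipid droplet and act as an endocrine organ. They secrete leptin, which reports fat stores to the brain, adiponectin, which raises insulin sensitivity, and in mice resistin, which opposes insulin action. Skeletal muscle fibres make little of these hormones. A whole-muscle sample can hold some fat cells between muscles or fibres, together with vessels, nerve and connective tissue. In such a sample, fewer fat cells and less RNA of these genes per fat cell cannot be told apart.

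The library totals lay between 14935532 and 44282448 counts. The targeted gene Esr1 stood at 6.75, 9.43 and 7.46 CPM (counts scaled to library size with TMM factors) in MERKO 1 to 3, against 25.1, 34.1 and 31.1 CPM in control 1 to 3, with no overlap between the genotypes (log2 fold change -1.95, SE 0.16, edgeR adjusted p = 0.0262). An rRNA gene model took 6.19%, 32.4% and 19.2% of counts in MERKO 1 to 3. In control 1 to 3 it took 11.1%, 27.7% and 0.0433%. Control 2 had the most adipocyte transcripts, followed by control 3. Muscle identity was plain in all libraries, with Ckm, the muscle creatine kinase, between 13937 and 20113 CPM in MERKO and between 19877 and 23586 CPM in control. Slow-fibre genes were high in MERKO 1 and control 1, where Myh7 stood at 160 and 185 CPM.

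Promoter sequences are shown for 4 of the genes, since most of the 10 moved together between libraries. RefSeq promoters on GRCm38.p6 were matched for 8 of the 10 genes, with 9 windows in all, Cidec having a pair of them. Each window runs from 250 bases before to 50 bases after the transcript start, and the 120 bases before the start are printed 5′ to 3′ on the strand of the gene. Capitals mark TTGCNNAA, a form of the core bound by C/EBP factors of fat cell differentiation, searched on both strands. The hormone gene Lep (chr6:29060101-29060220, plus strand) and the droplet gene Plin1 (chr7:79732777-79732896, minus strand) hold a match, and the hormone genes Retn (chr8:3655650-3655769, plus strand) and Adipoq (chr16:23146416-23146535, plus strand) are given as windows without one.
Lep: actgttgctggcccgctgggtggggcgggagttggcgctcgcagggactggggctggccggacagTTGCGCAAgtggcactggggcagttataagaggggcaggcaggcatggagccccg
Plin1: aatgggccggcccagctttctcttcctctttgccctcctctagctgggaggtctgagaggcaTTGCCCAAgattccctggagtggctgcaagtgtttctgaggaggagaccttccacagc
Retn: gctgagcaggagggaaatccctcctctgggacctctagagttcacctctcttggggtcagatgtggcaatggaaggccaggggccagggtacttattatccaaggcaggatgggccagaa
Adipoq: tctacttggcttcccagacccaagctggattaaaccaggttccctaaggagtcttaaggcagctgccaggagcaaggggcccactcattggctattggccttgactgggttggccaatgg
The match in Lep is TTGCGCAA, 55 to 48 bases before the start, and it reads the same on both strands. Plin1 has TTGCCCAA, 58 to 51 bases before the start, and TTGCCTAA further upstream, outside the printed part. The windows of Lep, Plin1 and 1 of the pair of Cidec windows held TTGCNNAA, so 3 of 9, where 10.8% of 32851 promoters of the same length did. The direct repeat element of PPARγ with RXR, which joins a pair of AGGTCA units, was in 0 of the 9 windows and in 0.0396% of all promoters, and AGGTCA alone, whose matches include those of the repeat, was in 0 of 9 and in 16.3%. The palindromic estrogen response element was in 0 of 9 and in 0.07% of all promoters. TATAAA was in 0 of 9 and in 13.6%, and CACGTG in 0 of 9 and in 7.15%. A match or its lack describes letters in these windows and not binding.

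All 10 genes were lower in MERKO by the fitted fold change, and none passed the test over all genes. The median log2 fold change was -2.24, against 0.01 over all genes tested. Of the 10, 8 had fitted levels between 12.4% and 23.8% of control, Car3 was at 39.6% and Fabp4 at 77.5%. With edgeR's quasi-likelihood test, 0 of the 10 were called (adjusted p between 0.631 and 0.776), where 0.00734% of all genes were called, namely Esr1. At an unadjusted p under 0.05, 9 of the 10 were lower, against 3.34% of all genes, and the same 9 had a log2 fold change at or below -1, against 0.726%. DESeq2 and limma-voom also called 0 of the 10. The call depended on settings: 9 of the 10, all but Fabp4, passed without composition factors or without the filter on low counts. Calls over all genes also rose, to 93 of 13628 without composition factors and to 140 of 25904 without the filter.

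**Figure D1:**
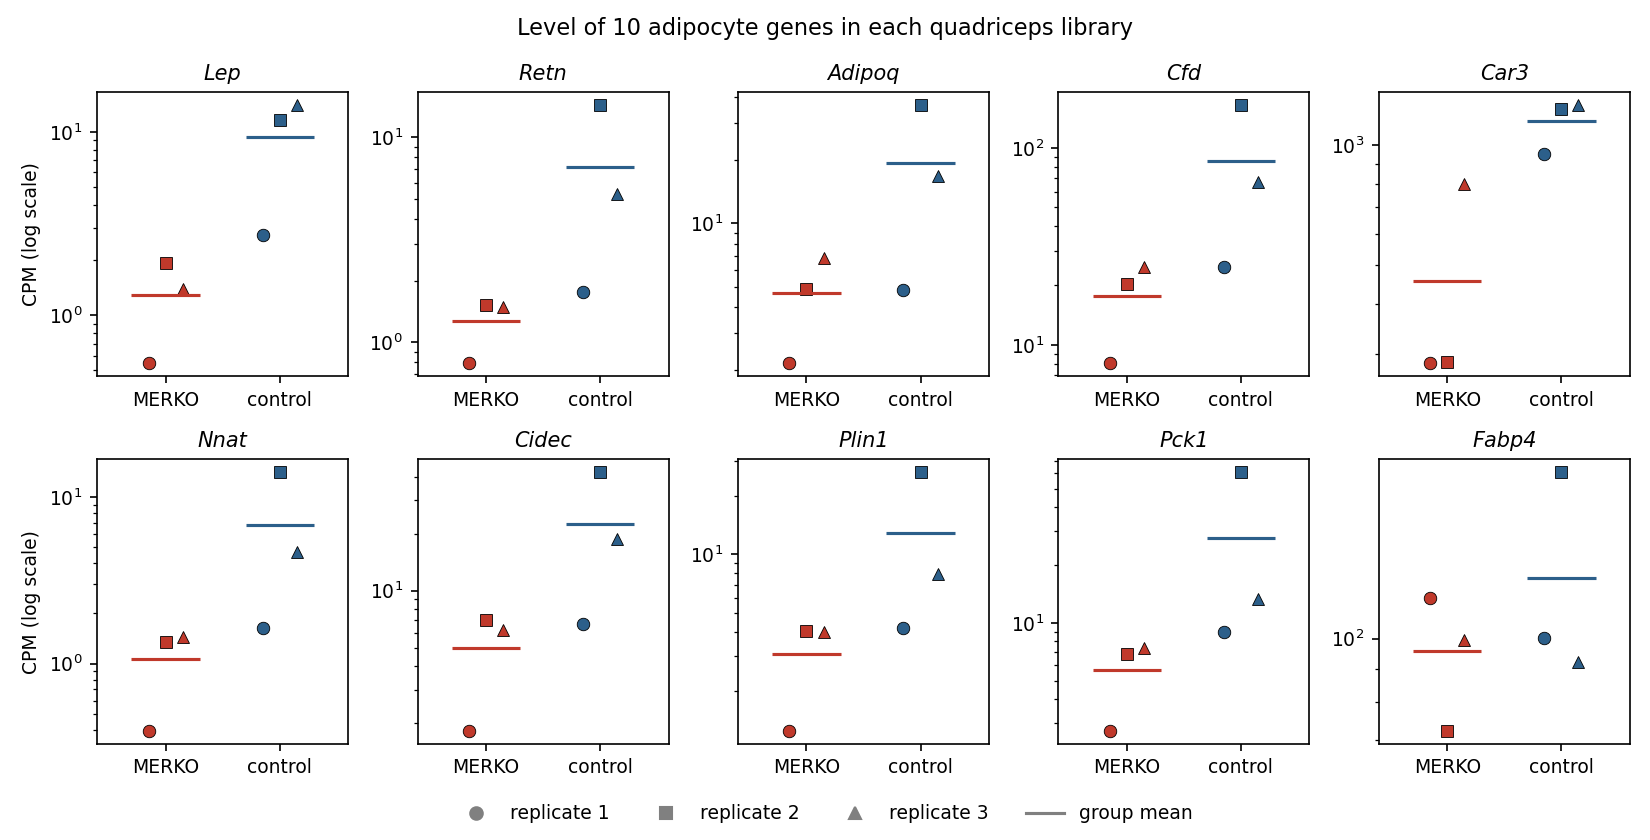
CPM of each gene in each library on a log axis that differs between panels, with MERKO at the left and control at the right of each panel, symbols for replicate numbers and a line at the group mean. Control 2 is the highest library in 8 of the 10 panels and MERKO 1 the lowest in 9, while control 1 sits beside MERKO 2 and MERKO 3 in most panels.

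Among the secreted factors, Lep (ENSMUSG00000059201.12, chr6:29060220-29073877, plus strand of GRCm38, as all positions of genes here), the leptin gene, stood at 0.547, 1.94 and 1.40 CPM in MERKO 1 to 3, against 2.73, 11.5 and 14.01 CPM in control 1 to 3. All MERKO libraries lay below all controls, with control 1 far nearer to MERKO than to the other controls. The log2 fold change was -3.01 (SE 0.66, 95% interval -4.52 to -1.51, edgeR adjusted p = 0.631), and Lep ranked 34 by p among the 13628 genes. Its counts were 18, 23 and 29 in MERKO and 65, 146 and 762 in control.

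Retn (ENSMUSG00000012705.16, chr8:3655770-3660110, plus strand), the resistin gene, stood at 0.791, 1.52 and 1.49 CPM in MERKO 1 to 3, against 1.76, 14.4 and 5.31 CPM in control 1 to 3. The groups did not overlap, but control 1 exceeded the highest MERKO library only 1.16-fold. The log2 fold change was -2.50 (SE 0.71, edgeR adjusted p = 0.654). Without control 2 it was -1.56.

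Adipoq (ENSMUSG00000022878.5, chr16:23146536-23158028, plus strand), which encodes adiponectin, stood at 2.16, 4.88 and 6.88 CPM in MERKO 1 to 3, against 4.83, 36.7 and 16.9 CPM in control 1 to 3. Control 1 lay inside the MERKO range, and the groups overlapped. Adiponectin transcripts averaged 4.64 ± 2.37 CPM over the MERKO libraries and 19.5 ± 16.1 CPM over the controls (SD, n = 3 per group), with a log2 fold change of -2.07 (SE 0.69, edgeR adjusted p = 0.671).

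Cfd (ENSMUSG00000061780.5, chr10:79890853-79892655, plus strand) encodes complement factor D, also called adipsin, a serine protease that adipocytes secrete in large amounts in mice. It stood at 8.06, 20.4 and 24.7 CPM in MERKO 1 to 3, against 24.8, 165 and 66.8 CPM in control 1 to 3. MERKO 3 and control 1 were nearly level, 1.004-fold apart, with 513 and 590 counts. The log2 fold change was -2.28 (SE 0.66, edgeR adjusted p = 0.654).

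In the lipid droplet genes, too, control 2 was the highest library and MERKO 1 the lowest. Cidec (ENSMUSG00000030278.11, chr6:113424634-113435760, minus strand), which enlarges droplets by passing lipid from one to another, stood at 1.82, 6.99 and 6.21 CPM in MERKO 1 to 3, against 6.68, 42.1 and 18.7 CPM in control 1 to 3. Plin1 (ENSMUSG00000030546.14, chr7:79720218-79732903, minus strand), the perilipin that coats the droplet and gates lipolysis, stood at 1.25, 4.04 and 3.99 CPM in MERKO 1 to 3, against 4.20, 26.4 and 7.92 CPM in control 1 to 3. The groups overlapped in Cidec, where control 1 lay below MERKO 2, and in Plin1 control 1 was 1.04-fold above MERKO 2. The log2 fold changes were -2.21 (SE 0.69) for Cidec and -2.07 (SE 0.71) for Plin1, with edgeR adjusted p-values of 0.666 and 0.68.

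Pck1 (ENSMUSG00000027513.11, chr2:173153048-173159273, plus strand) encodes the cytosolic phosphoenolpyruvate carboxykinase, which in fat cells supplies glycerol phosphate for triglyceride synthesis. It stood at 2.74, 6.90 and 7.41 CPM in MERKO 1 to 3, against 8.99, 60.8 and 13.3 CPM in control 1 to 3. Control 1 was the lowest control and lay 1.21-fold above MERKO 3. The log2 fold change of -2.29 (SE 0.73, edgeR adjusted p = 0.668) was -1.01 without control 2.

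Nnat (ENSMUSG00000067786.16, chr2:157560078-157562522, plus strand), or neuronatin, encodes a small membrane protein of neural and adipose tissue and is imprinted. It stood at 0.395, 1.35 and 1.44 CPM in MERKO 1 to 3, against 1.64, 14.05 and 4.69 CPM in control 1 to 3, a log2 fold change of -2.72 (SE 0.81, edgeR adjusted p = 0.654). Its counts were 13, 16 and 30 in MERKO and 39, 178 and 255 in control. Nnat lies within the span of Blcap on the opposite strand without shared exons, and the microRNA model Gm23134, on the opposite strand to an exon of Nnat, had 20 counts over the 6 libraries. The strand setting of the counting is not given in the sources used here, so reads of the strands cannot be told apart there.

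Car3 (ENSMUSG00000027559.5, chr3:14863512-14872523, plus strand) encodes carbonic anhydrase III, abundant in rodent fat cells and also in slow-twitch fibres. It stood at 284, 285 and 799 CPM in MERKO 1 to 3, against 952, 1237 and 1263 CPM in control 1 to 3. Every control exceeded every MERKO library, and the controls spanned 1.33-fold, the narrowest span of the 10 in control, where the other 9 spanned 1.95-fold to 8.57-fold. The log2 fold change was -1.34 (SE 0.39, 95% interval -2.24 to -0.43, edgeR adjusted p = 0.654), and it stayed at -1.27 without control 2. Without MERKO 3 it was -2.01, with an adjusted p of 0.0339 (edgeR), in a range of adjusted p from 0.00256 to 0.999 over its alternatives. Of 10 slow-fibre genes, MERKO was higher in 5 and lower in 5, with summed levels of 659, 61.1 and 81.9 CPM in MERKO 1 to 3, against 668, 73.0 and 74.3 CPM in control 1 to 3. Their myosin gene Myh7 was at 160, 1.77 and 2.12 CPM in MERKO 1 to 3, against 185, 6.00 and 8.07 CPM in control 1 to 3. MERKO 1 was thus high in slow-fibre transcripts and low in Car3, and the part of slow fibres in the level of Car3 was not tested.

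Fabp4 (ENSMUSG00000062515.3, chr3:10204088-10208576, minus strand) encodes the fatty acid carrier of adipocytes, which capillary endothelium and macrophages also make. It stood at 115, 72.3 and 99.5 CPM in MERKO 1 to 3, against 100.2, 179.7 and 92.0 CPM in control 1 to 3. The groups overlapped, with control 3 below MERKO 1 and MERKO 3. The log2 fold change was -0.37 (SE 0.27, 95% interval -0.99 to 0.25, edgeR adjusted p = 0.776), and without control 2 it was 0.0018. Of 12 endothelial genes, MERKO was higher in 7 and lower in 5, and 0 were called. Their summed level was 689, 443 and 546 CPM in MERKO 1 to 3, against 672, 524 and 489 CPM in control 1 to 3. Endothelial transcripts were highest in MERKO 1, which also had the most Fabp4 of the MERKO libraries, but not in control 2, which had the most Fabp4 of all, and their part in the level of Fabp4 was not tested.

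**Figure D2:**
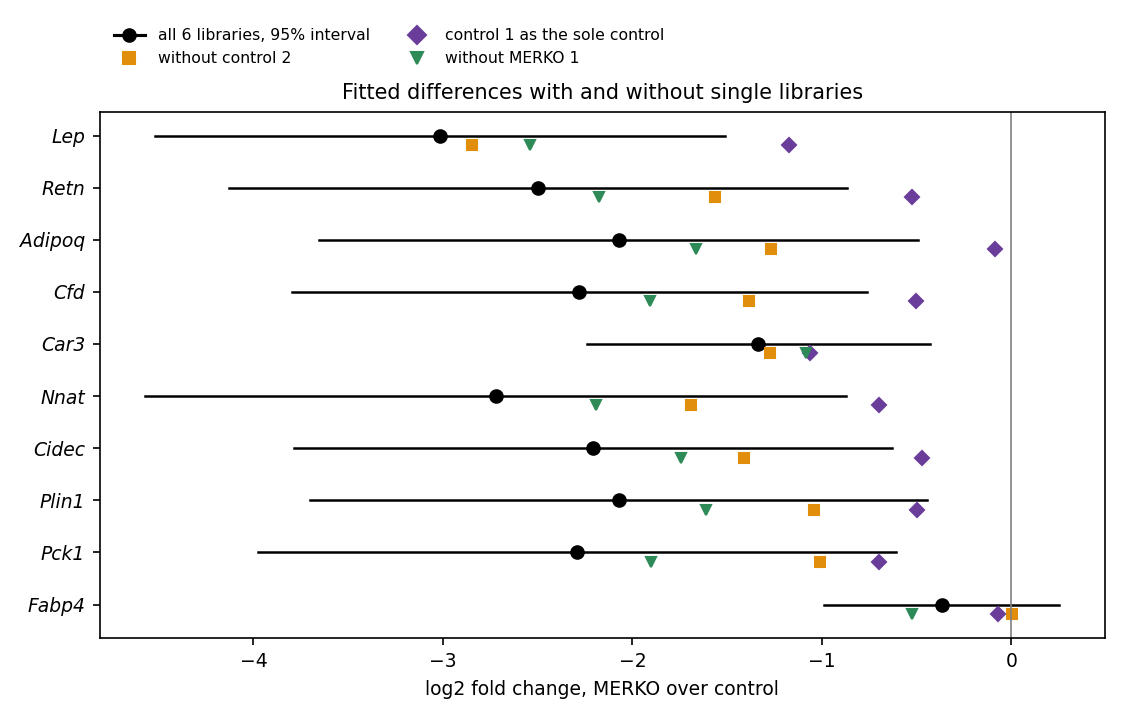
Fitted log2 fold change of MERKO over control (horizontal axis) for each gene, with its 95% interval as a black bar and the fitted value without control 2, without MERKO 1 and with control 1 as the sole control in colour. The median of the 10 is -2.24 with all libraries and -0.51 with control 1 alone, while Car3 moves little in the runs shown. Without MERKO 3, which is not shown, Car3 is at -2.01.

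Of the single libraries, control 2 changed the median of the 10 most when left out, but not each gene. Lep was at -2.85 without control 2, and moved further without control 1, to -3.46, and without control 3, to -2.54. Car3 moved most without MERKO 3, to -2.01. In 7 of the 10 genes every MERKO library was below every control library, where 7.1% of all genes were lower without overlap. Control 1 was the lowest control in 9 of the 10 genes. For 9 of the 10, the exact 95% Poisson interval of the count in the lowest control reached or lay below that in the highest MERKO library, and for Car3 it lay above, at 940 to 965 CPM in control 1 against 787 to 812 CPM in MERKO 3. These intervals cover counting error only. Summed over the 10 without Car3 and Fabp4, a subset chosen after the values were seen, the level was 17.8, 48.0 and 53.5 CPM in MERKO 1 to 3, against 55.6, 371 and 148 CPM in control 1 to 3. Without control 2 the log2 fold change was -1.27 for Adipoq, -1.38 for Cfd, -1.69 for Nnat, -1.41 for Cidec and -1.04 for Plin1. The median of the 10 was -1.33 without control 2 and -2.38 without control 3. It was -0.51 when both were left out and control 1 was the sole control, which assumes that a lone library varies like the others.

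Expressed per kilobase of exon, so that genes can be compared, the order of mean levels in MERKO was Car3 (159 ± 104 CPM per kb), Fabp4 (21.3 ± 4.86), Cfd (19.2 ± 9.36), Adipoq (3.36 ± 1.72), Cidec (2.70 ± 1.499), Pck1 (1.66 ± 0.748), Retn (0.802 ± 0.261), Plin1 (0.665 ± 0.344), Nnat (0.581 ± 0.317) and Lep (0.386 ± 0.209), each as mean ± SD with n = 3. In control it was Car3 (402 ± 60.2 CPM per kb), Cfd (92.8 ± 78.1), Fabp4 (27.6 ± 10.8), Adipoq (14.1 ± 11.7), Cidec (12.1 ± 9.70), Pck1 (8.07 ± 8.38), Retn (4.53 ± 4.11), Nnat (3.71 ± 3.54), Lep (2.81 ± 1.77) and Plin1 (2.76 ± 2.55). In MERKO the steps below Car3, below Cfd and below Pck1 exceeded the larger SD of the pair of neighbours, and in control those below Car3 and below Fabp4 did, while the other neighbours lay within it. By its group mean, Lep was at percentile 15.3 of all tested genes per kilobase in MERKO and at percentile 59.4 in control. The controls differed, with Lep at 0.814, 3.44 and 4.18 CPM per kb in control 1 to 3. Car3 was at percentile 99.2 in MERKO and 99.6 in control.

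Most of the genes varied far less between libraries in their proportion to Adipoq than in their own level. Adipoq spanned 17.0-fold in CPM over the 6 libraries. Cfd spanned 20.5-fold, whereas its ratio to Adipoq in the same library was 3.73, 4.17 and 3.59 in MERKO 1 to 3, against 5.13, 4.50 and 3.97 in control 1 to 3, a span of 1.43-fold. The ratio of Cidec to Adipoq spanned 1.69-fold, that of Retn 1.81-fold and that of Plin1 1.85-fold, where their CPM spanned 23.1-fold, 18.2-fold and 21.1-fold. Nnat, with a CPM span of 35.5-fold, had a ratio span of 2.09-fold, and Pck1 one of 2.36-fold.

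Lep departed from these proportions. Its ratio to Adipoq was 0.254, 0.397 and 0.203 in MERKO 1 to 3, against 0.565, 0.314 and 0.831 in control 1 to 3, a span of 4.10-fold. Control 3 had the highest ratio and the most Lep transcripts, although its Adipoq level was below that of control 2. For Car3 the ratio spanned 5.85-fold and the CPM 4.46-fold, and for Fabp4 10.9-fold and 2.48-fold, so that dividing by Adipoq widened the spread of both.

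**Figure D3:**
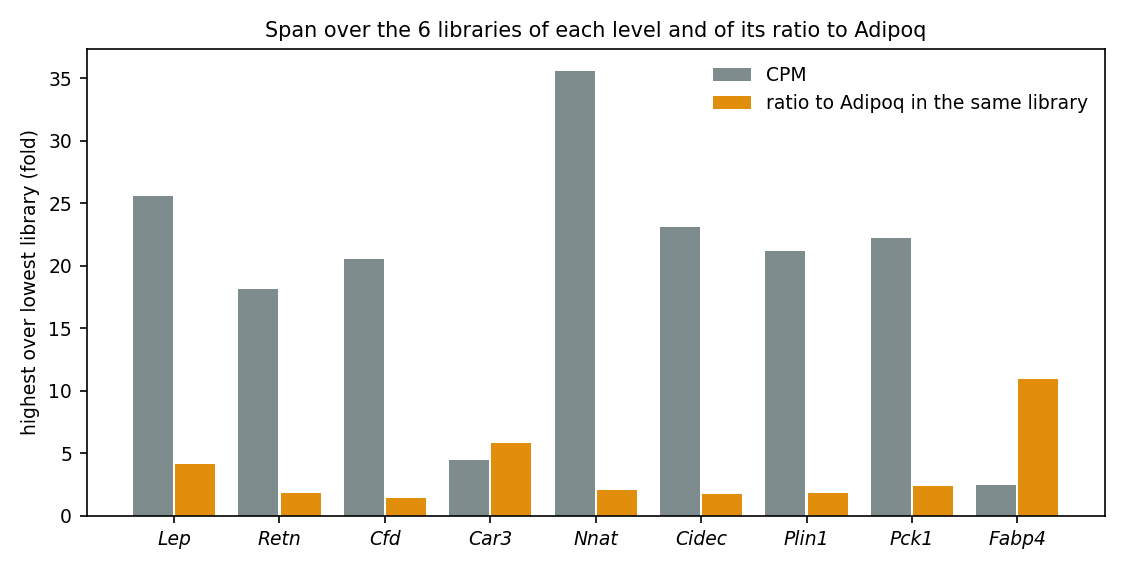
Highest over lowest library (fold, vertical axis from 0) for the CPM of each gene in grey and for its ratio to Adipoq in the same library in orange. The ratio spans 1.43-fold to 4.10-fold for the 7 genes other than Car3 and Fabp4, against 18.2-fold to 35.5-fold for their CPM.

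Correlations of log2 CPM over the 6 libraries describe the same co-variation for all 45 pairs, with both genotypes pooled, so that a shared difference between genotypes enters them. Pearson's r had a median of 0.931 and a range of 0.306 to 0.999, and Spearman's rho a median of 0.886 and a range of -0.09 to 1. By exact permutation and after adjustment over the 45 pairs, 28 had an adjusted p under 0.05 for r (p-values from 0.00139 to 0.596) and 18 for rho (p-values from 0.00278 to 1). The 28 were the pairs that hold neither Car3 nor Fabp4, with r between 0.849 and 0.999. The 8 pairs of Car3 with the genes other than Fabp4 had r between 0.738 and 0.802, and the 9 pairs with Fabp4 between 0.306 and 0.626. Without the 2 libraries farthest from the median of the first gene of a pair, the median r was 0.917 and the range -0.571 to 0.997, the lowest values being those of pairs with Fabp4. Deviations from the group means, which leave out the difference between genotypes, had a median r of 0.866 and a range of -0.08 to 0.998. For the 28 pairs they lay between 0.670 and 0.998, so those genes also co-varied among libraries of the same genotype. The 8 pairs of Car3 fell to between 0.354 and 0.551, and the 9 pairs with Fabp4 lay between -0.08 and 0.516.

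**Figure D4:**
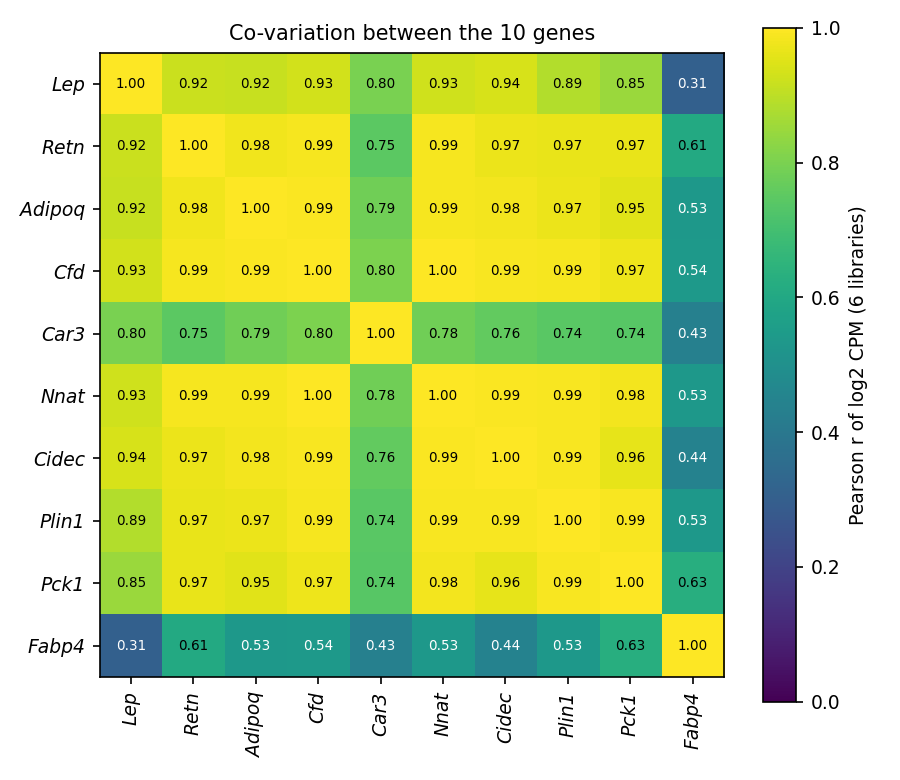
Pearson's r of log2 CPM over the 6 libraries for each pair of genes, by colour from 0 to 1 and as a number. The block of 8 genes without Car3 and Fabp4 lies between 0.849 and 0.999, and the row of Fabp4 between 0.306 and 0.626.

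Genes outside the set were ranked by Pearson's r of log2 CPM with the mean of the 10, each centred and scaled, over the 6 libraries, among 11386 candidates. The 8 highest were Trp63, Traf3ip2, Cdo1, Slc3a2, Klhdc7a, Prkar2b, Fam53c and Cd1d1, with r between 0.984 and 0.997. With 6 libraries and so many candidates, high values of r can also arise by chance, which was not tested. Cdo1, a cysteine dioxygenase, stood at 2.28, 2.95 and 4.23 CPM in MERKO 1 to 3, against 4.24, 26.4 and 8.91 CPM in control 1 to 3. Prkar2b, a regulatory subunit of protein kinase A, stood at 1.22, 1.68 and 2.45 CPM in MERKO 1 to 3, against 2.10, 11.4 and 4.03 CPM in control 1 to 3. Both had control 2 as their highest library. Trp63, with the highest r of 0.997, spanned only 3.01 to 3.71 CPM in MERKO and 3.86 to 5.68 CPM in control, so that a high r did not mean a large difference.

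Further genes of fat cells were examined as lists, and 0 genes were called by edgeR in any of them. Among 14 other white adipocyte markers, 12 were lower in MERKO and 2 were higher, and their median log2 fold change was -1.13, against 0.01 over all genes. The lowest p-values belonged to Npr3, the natriuretic peptide clearance receptor, Orm1, an acute-phase glycoprotein, and Tenm4, a teneurin. Npr3 stood at 6.05, 5.81 and 4.04 CPM in MERKO 1 to 3, against 7.35, 20.3 and 15.5 CPM in control 1 to 3 (log2 fold change -1.43, SE 0.35, edgeR adjusted p = 0.654). Orm1 had 0, 2 and 5 counts in MERKO, against 15, 39 and 48 in control.

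Enzymes of fatty acid and triglyceride synthesis were lower in 15 of 21 tested genes and higher in 6, with a median of -0.31. The lowest p belonged to Gpam, which was higher (log2 fold change 0.55, SE 0.17, edgeR adjusted p = 0.654), followed by Scd1 and Fasn, which were lower. Scd1, the stearoyl-CoA desaturase, stood at 41.0, 139 and 127 CPM in MERKO 1 to 3, against 132, 820 and 374 CPM in control 1 to 3 (log2 fold change -2.11, SE 0.66, edgeR adjusted p = 0.666). Fasn, the fatty acid synthase, stood at 20.0, 43.0 and 36.4 CPM in MERKO 1 to 3, against 40.8, 283 and 74.0 CPM in control 1 to 3 (log2 fold change -2.001, SE 0.66, edgeR adjusted p = 0.671). In Scd1 and Fasn control 1 lay inside the MERKO range, as in Adipoq.

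Of 15 adipogenic transcription factors, 12 were lower and 3 higher, with a median of -0.16. The lowest p belonged to Klf5, an early adipogenic factor also made elsewhere, which was higher, at 1.52, 1.18 and 1.68 CPM in MERKO 1 to 3, against 0.714, 1.03 and 0.809 CPM in control 1 to 3 (log2 fold change 0.83, SE 0.29, edgeR adjusted p = 0.68). Cebpa, which drives terminal fat cell differentiation, stood at 2.98, 4.97 and 5.68 CPM in MERKO 1 to 3, against 4.62, 21.6 and 9.54 CPM in control 1 to 3 (log2 fold change -1.38, SE 0.52, edgeR adjusted p = 0.683). Pparg, the master regulator of adipogenesis, stood at 3.28, 3.11 and 2.79 CPM in MERKO 1 to 3, against 2.27, 6.47 and 3.03 CPM in control 1 to 3, with overlapping groups. It is named outside the rule for naming genes, after its values were seen.

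Other secreted factors did not share one direction, with 8 of 12 lower, 4 higher and a median of -0.19. Rbp4, the retinol carrier, stood at 0.578, 0.505 and 0.481 CPM in MERKO 1 to 3, against 0.840, 5.603 and 1.27 CPM in control 1 to 3. Lipid droplet and lipolysis genes were lower in 8 of 16 and higher in 8, with a median of 0.01. Many of them, such as Plin2, also work in muscle fibres. Of 14 brown and beige fat markers only 7 passed the filter on low counts. These were higher in 5 and lower in 2, with a median of 0.08. The defining marker Ucp1 was not among them, with 4, 0 and 0 counts in MERKO, against 0, 3 and 0 in control.

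Receptors of the hormones were measured in the same tissue. Of 7 genes, MERKO was higher in 4 and lower in 3, and the median was 0.03. The adiponectin receptor genes Adipor1 and Adipor2 had log2 fold changes of -0.22 (SE 0.12) and -0.20 (SE 0.09), each with an edgeR adjusted p of 0.713. In both, MERKO lay below control without overlap, where 7.1% of all genes did. Lepr, the leptin receptor, stood at 15.8, 9.09 and 4.48 CPM in MERKO 1 to 3, against 3.86, 4.42 and 5.16 CPM in control 1 to 3 (log2 fold change 1.13, SE 0.39, edgeR adjusted p = 0.68), with overlapping groups.

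**Figure D5:**
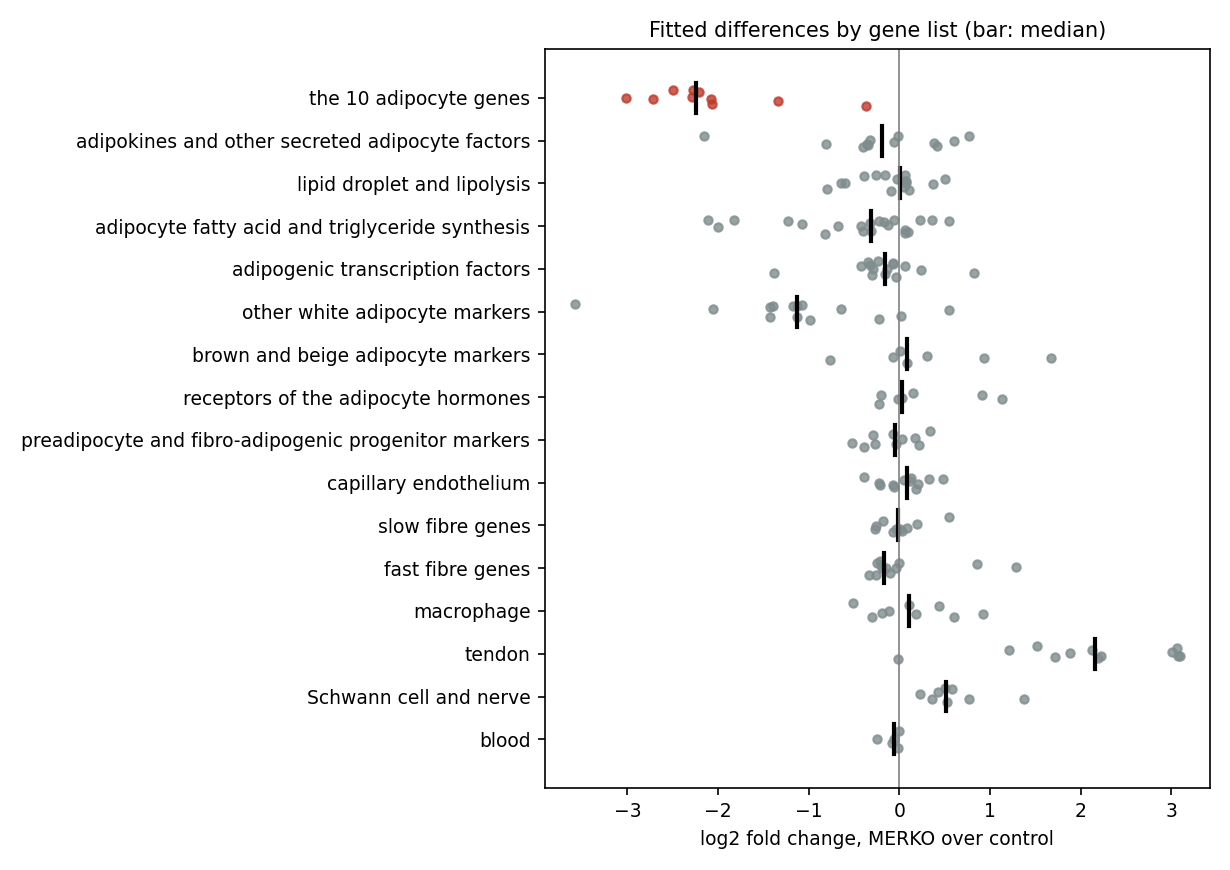
Fitted log2 fold change of MERKO over control (horizontal axis) for each tested gene of the 10 (red) and of the other lists (grey), with the list median as a black bar. The medians are -2.24 for the 10 and -1.13 for other white adipocyte markers, against 2.16 for tendon genes and values near 0 for most other lists.

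Markers of other cells in the muscle are given beside these values. Tendon genes moved the opposite way, with 11 of 12 higher and 1 lower, a median of 2.16 and 0 called by edgeR. Their summed levels were 500, 265 and 101 CPM in MERKO 1 to 3, against 104, 41.2 and 85.4 CPM in control 1 to 3. The tendon sums overlapped, with MERKO 3 below control 1. Control 2, with the highest level of 8 of the 10 adipocyte genes, had the lowest tendon level, and MERKO 1, with the lowest level of 9 of them, the highest. Genes of nerve and its Schwann cells stood higher in 8 of 8, with a median of 0.51 and summed levels of 40.9 to 64.3 CPM in MERKO and 28.6 to 37.7 CPM in control. The part of these tissues in the adipocyte values was not tested.

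The remaining lists had overlapping summed levels, as the tendon genes did. Progenitor markers were lower in 6 of 10 (median -0.05, 555 to 789 CPM in MERKO and 556 to 803 CPM in control). Macrophage genes were lower in 4 of 9 (median 0.11, 116 to 176 CPM in MERKO and 120 to 206 CPM in control). Blood genes were lower in 5 of 5 (median -0.06, 89.2 to 119 CPM in MERKO and 92.0 to 162 CPM in control). Slow-fibre genes were lower in 5 of 10 (median -0.02) and fast-fibre genes in 9 of 12 (median -0.17).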

How the data were processed

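The authors deposited raw read counts per gene with 1 column for each of the 6 libraries. Libraries were TruSeq RNA libraries of Trizol-extracted RNA, per the labels' protocols. STAR 2.5.2b, HTSeq 0.9.1 and DESeq are named with the builds mm10 and GRCm38, per the submitters' processing notes. The sources used here give neither their roles nor the annotation release or strand setting. Symbols matched 48349 of the 48795 identifiers, and positions and exon lengths come from GENCODE M21 (GRCm38). The labels do not say that libraries came from separate animals, so a p-value reflects only spread among these libraries, which may be technical. Libraries of a group differed by more than sampling noise (lowest chi-square, divided by its degrees of freedom, 116.9).

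MERKO was compared with control by edgeR 4.0.16 (quasi-likelihood test, filterByExpr, TMM) in R 4.3.3. The model held genotype alone, with Benjamini-Hochberg adjustment over 13628 genes at a threshold of 0.05. The code was tested on simulated data. Alternatives were DESeq2 1.42.0, limma-voom (limma 3.58.1), other scaling and filters, a replicate block and leaving out libraries. The 10 genes and all lists were chosen with earlier results of these data known. Named genes are the 10, up to 3 genes of lowest p per list and the 8 with the highest r, with exceptions named as such. Log2 CPM used a prior count of 2.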

Additional observations from a re-analysis of the deposited data

How the results depend on the processing

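The 10 genes stayed lower in MERKO under every alternative run except Fabp4, whose log2 fold change was 0.0018 when control 2 was left out and -0.65 when MERKO 1 and control 1 both were. The count of the 10 called, 0 by edgeR, was 9 without composition factors and 9 without the low-count filter, 4 with the replicate block (Lep, Cfd, Nnat and Cidec), 1 without MERKO 1 and control 1 together, and 0 to 1 when single libraries were left out. The count over all genes, 1, was 23 by DESeq2, 93 without composition factors, 140 without the filter, 51 with the replicate block, 7 without MERKO 1 and control 1 together, 0 with control 1 as the sole control, and 0 to 11 when single libraries were left out. The cause was not tested. Leaving out composition factors moved the median of all genes to -0.10. The median of the 10 was -0.51 with control 1 as the sole control and -2.69 to -1.33 when single libraries were left out; that setting and the one without MERKO 1 and control 1 were chosen after seeing the data. Whether the replicate number pairs the libraries cannot be decided from so few values. Same-numbered libraries correlated at 0.448, 0.163 and 0.0612 in their deviations from group means, and the other pairs between -0.314 and 0.184. MERKO 2 correlated slightly better with control 3, at 0.184, than with control 2. Nnat, Retn and Lep had 13 to 31 counts in each MERKO library, which limits their precision.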

Other observations

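A few genes of the adipocyte lists stood apart without overlap between the groups, in either direction, and none was called by edgeR. Of 16 lipid droplet and lipolysis genes, 1 was higher and 2 were lower without overlap, and of 21 synthesis genes 1 was higher and 5 were lower, where 6.17% of all genes were higher and 7.1% lower. Pnpla3, which encodes a protein of the droplet surface, had 2.46, 2.69 and 2.60 CPM in MERKO 1 to 3, against 3.32, 5.603 and 4.61 CPM in control 1 to 3 (log2 fold change -0.79, SE 0.22, edgeR adjusted p = 0.654). The gene that was higher among the synthesis genes was Gpam, a glycerol-3-phosphate acyltransferase, at 219, 185 and 151 CPM in MERKO 1 to 3, against 149.9, 121 and 109 CPM in control 1 to 3 (log2 fold change 0.55, SE 0.17, edgeR adjusted p = 0.654). Among the droplet genes it was Plin2, the perilipin of many cell types, at 24.6, 20.8 and 26.7 CPM in MERKO 1 to 3, against 18.4, 19.9 and 17.6 CPM in control 1 to 3 (log2 fold change 0.37, SE 0.12, edgeR adjusted p = 0.665). Among the brown and beige fat markers, Dio2, the deiodinase that activates thyroid hormone, stood at 2.19, 1.26 and 1.40 CPM in MERKO 1 to 3, against 0.672, 0.473 and 0.423 CPM in control 1 to 3 (log2 fold change 1.68, SE 0.35, edgeR adjusted p = 0.631). Dio2 counts were low, at 72, 15 and 29 in MERKO and 16, 6 and 23 in control.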
